A study of Mus musculus with 16 samples.

Results

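Regions bound by Foxn4 without a peak of Foxn3 or Rfx3, lying in or next to a protein-coding gene, were described here. They were chosen by the presence of a Foxn4 peak and the absence of the other factors' peaks. Peaks of all 3 factors that overlapped by at least 1 bp were merged into 6155 regions, and 1654 of these held Foxn4 peaks only. Of the 1654, 816 had their midpoint inside a RefSeq protein-coding gene or within 1 kb of one of its ends. They fell into 184 regions within 1 kb of a gene end (11.1% of the Foxn4-only regions, 95% Wilson interval 9.7 to 12.7%), called gene-end regions below, and 632 deeper inside a gene (38.2%, 35.9 to 40.6%), called deeper regions. The other 838 lay between genes. These counts follow from the presence or absence of peaks, which chose the regions, and carry no test. The intervals cover counting error only. Each of the 816 regions was a single Foxn4 peak.

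The assay was CUT&RUN, in which an antibody tethers micrococcal nuclease to a DNA-bound protein in unfixed cells, and the freed DNA is sequenced. Retinas came from CD-1 mouse embryos, an outbred stock, at embryonic day 16, with no transgene or treatment named in the labels, and 300000 pooled, dissociated cells entered each assay. Antibodies gave 8 libraries (4 for Foxn3 in 2 experiments, 2 for Foxn4, 2 for Rfx3), and immunoglobulin G (IgG) controls gave 8 (6 rabbit, 2 mouse). Digestion lasted 1 h for Foxn3, Rfx3 and the rabbit IgG, and about 12 h for Foxn4 and its mouse IgG, so the antibody, the control species and the digestion time cannot be told apart in a Foxn4-only call. The data were 1 peak list per factor, with 2794 Foxn3, 2956 Foxn4 and 3981 Rfx3 peaks, so the separate libraries give no replicate check and the read depth is unknown. Whole retinas were used, and the lists do not show in which retinal cells a factor was bound.

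Foxn4 is a forkhead (winged-helix) transcription factor of retinal progenitors. It is required for amacrine and horizontal cells and acts with the nuclear receptor Rorb upstream of Ptf1a. Foxn3 belongs to the same forkhead subfamily, and Rfx3 is a winged-helix factor that binds X-box sequences in genes of the primary cilium. Members of the FOXN group can bind a short GACGC sequence, and some of them also the classical forkhead sequence.

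Promoter sequence from RefSeq (GRCm38.p6, the assembly of the mm10 peak coordinates) is shown for 6 gene-end regions, as the sequence at or next to the Foxn4 peak. The first 3, Esyt1, Fchsd2 and Sugct, had the highest Foxn4 scores among gene-end regions with a listed start at most 300 bp from the midpoint, Sugct being tied at 9.78 with Ifnar1, Npvf and Mrpl34 and placed first by position. Rorb, Epha7 and Ift20 were picked after their values were seen, because they stand for the retinal regulator, axon guidance and primary cilium lists. Each line gives the 250 bases before the listed start, 5′ to 3′ on the strand of the gene. Capitals mark matches to 1 of the 9 sequences searched, on either strand, and adjoining or overlapping matches form 1 run of capitals.
Esyt1, chr10:128525860-128526109, minus strand: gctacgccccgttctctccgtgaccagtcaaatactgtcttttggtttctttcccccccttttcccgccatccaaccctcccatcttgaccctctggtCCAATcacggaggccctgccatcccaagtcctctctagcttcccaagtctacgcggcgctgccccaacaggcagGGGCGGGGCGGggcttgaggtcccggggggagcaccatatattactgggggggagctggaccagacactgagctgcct
Fchsd2, chr7:101108525-101108774, plus strand: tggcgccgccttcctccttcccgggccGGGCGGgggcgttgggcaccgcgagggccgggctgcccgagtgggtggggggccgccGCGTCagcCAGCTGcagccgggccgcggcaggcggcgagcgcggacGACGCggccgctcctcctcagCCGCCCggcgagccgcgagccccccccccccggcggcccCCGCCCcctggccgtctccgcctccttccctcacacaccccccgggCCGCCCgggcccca
Sugct, chr13:17694766-17695015, minus strand: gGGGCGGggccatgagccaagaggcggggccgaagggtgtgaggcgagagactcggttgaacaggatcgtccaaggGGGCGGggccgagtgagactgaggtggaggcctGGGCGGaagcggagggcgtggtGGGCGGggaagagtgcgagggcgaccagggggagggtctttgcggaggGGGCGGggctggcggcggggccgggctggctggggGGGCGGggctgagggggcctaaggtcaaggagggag
Rorb, chr19:19111197-19111446, minus strand: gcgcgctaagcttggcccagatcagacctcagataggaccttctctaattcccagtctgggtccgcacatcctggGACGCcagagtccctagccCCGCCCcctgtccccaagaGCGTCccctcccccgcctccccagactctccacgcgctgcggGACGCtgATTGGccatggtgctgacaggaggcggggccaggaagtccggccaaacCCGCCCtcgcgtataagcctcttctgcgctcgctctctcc
Epha7, chr4:28812881-28813130, plus strand: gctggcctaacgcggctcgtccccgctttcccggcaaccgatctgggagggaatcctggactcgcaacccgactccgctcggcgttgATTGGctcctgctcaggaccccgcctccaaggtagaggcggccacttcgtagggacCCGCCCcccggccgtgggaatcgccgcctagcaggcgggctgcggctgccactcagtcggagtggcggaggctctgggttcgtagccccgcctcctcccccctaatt
Ift20, chr11:78536111-78536360, plus strand: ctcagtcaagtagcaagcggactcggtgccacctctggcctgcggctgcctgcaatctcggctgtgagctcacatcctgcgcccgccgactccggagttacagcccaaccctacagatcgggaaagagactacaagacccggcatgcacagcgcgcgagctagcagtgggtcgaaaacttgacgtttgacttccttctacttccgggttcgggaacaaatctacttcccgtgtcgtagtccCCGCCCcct

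All 6 stretches were rich in G and C, from 59.6% in Ift20 to 84.0% in Fchsd2. The Rorb stretch held 3 GACGC matches, 1 CCAAT match and 2 GC boxes (GGGCGG). The Fchsd2 stretch held 2 GACGC matches, 1 CAGCTG E-box and 4 GC boxes. The Esyt1 stretch held 1 CCAAT match and 2 GC boxes, and the Epha7 stretch 1 of each. Sugct had 6 GC boxes and Ift20 had 1, with none of the other searched sequences. No stretch held the forkhead sequence TGTTTAC or the X-box half-site GTTGCCA. The Fchsd2 midpoint lay 19 bp from the nearest annotated gene boundary, which differs from the listed start. The midpoints of the Fchsd2 and Sugct regions lay 257 and 256 bp upstream of the listed starts, outside the printed bases. Of their matches, 1 GACGC and 1 GC box in Fchsd2, its E-box, and 4 GC boxes in Sugct fell inside the Foxn4 region, as did every match printed for the other 4 genes. A match describes letters in a window and is not evidence of a bound site.

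Gene-end regions marked the start of transcription in most cases. Strand could be assigned for 156 of the 184, and in 145 of these (92.9%, 87.8 to 96.0%) a start lay within 1 kb, while 11 (7.05%, 3.98 to 12.2%) had only an end of transcription there. Among Foxn4 regions that also held a Foxn3 or Rfx3 peak, 593 of 599 (99.0%, 97.8 to 99.5%) had a start within 1 kb. The rule treated both ends alike, so which end was bound was not used to choose the regions. The difference between these shares was not tested.

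The promoter table places a listed start within 1 kb of 139 gene-end regions, and within 300 bp of 118. The 145 above also count gene ends that have no listed start of their own at that place. The midpoints of the 118 had a median position 79 bp upstream of the start (-79.0, quartiles -150.75 and -15.25), and 95 of the 118 (80.5%, 72.4 to 86.6%) were upstream. The 511 shared Foxn4 regions at the same distance had a median of -115.0 bp. The Rorb region, chr19:19111171-19111542, had its midpoint 160 bp upstream of the listed start, and that of Epha7, chr4:28812910-28813178, lay 87 bp upstream.

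**Figure D1:**
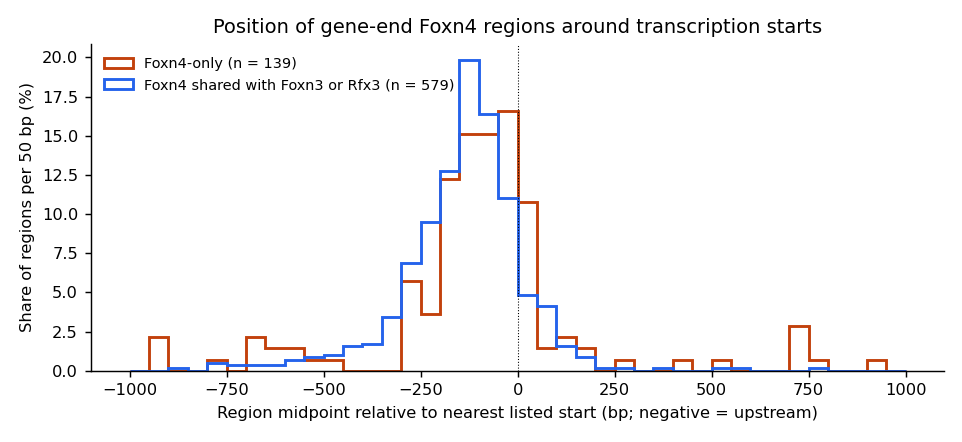
Midpoints of gene-end Foxn4 regions relative to the nearest listed start (x axis, bp, negative upstream) as the share of regions per 50 bp bin (y axis, %). Orange is Foxn4-only (n = 139 within 1 kb of a listed start) and blue is Foxn4 shared with Foxn3 or Rfx3 (n = 579). Both peak just upstream of the start.

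The X-box half-site was about as frequent at the 118 regions as at all listed starts. For each region the 300 bp RefSeq window of its nearest start (250 bases before to 50 after) was searched on both strands for 9 short sequences. GTTGCCA was present in 4 of 118 windows (3.39%, 1.33 to 8.39%), near the 4.18% of all 21263 listed windows. At regions with both Foxn3 and Rfx3 peaks and no Foxn4 peak it was present in 120 of 602 (19.9%, 16.9 to 23.3%). The odds ratio was 0.141 (95% interval 0.051 to 0.39, Fisher's exact test, two-sided, Benjamini-Hochberg adjusted p = 3.01e-05 over 18 tests). The rule asks for no Rfx3 peak in the first class, and the second was defined by having one, so on a sequence that Rfx3 binds the selection bears on this contrast. Against the 511 shared Foxn4 windows, of which 31 (6.07%) had a match, the adjusted p was 0.669.

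GACGC, the sequence linked to FOXN factors, was in 72 of 118 windows (61.0%, 52.0 to 69.3%). This share was above the 33.4% of all listed windows, but 53.2% of shared Foxn4 windows and 58.0% of Foxn3 and Rfx3 windows also held it. Neither of these differences passed the test (odds ratio 1.38, 0.914 to 2.07, adjusted p = 0.452, and 1.13, 0.758 to 1.7, adjusted p = 0.812, Fisher's exact test). The classical forkhead sequence TGTTTAC was in 1 of 118 (0.847%), against 3.01% of all listed windows.

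CCAAT, the box bound by NF-Y, was in 68 of 118 windows (57.6%, 48.6 to 66.2%) and in 362 of 511 shared Foxn4 windows (70.8%, 66.8 to 74.6%). The odds ratio was 0.56 (0.371 to 0.845), and the adjusted p of 0.0734 (Fisher's exact test) missed the 0.05 threshold. With starts taken up to 1 kb away, a setting chosen after seeing the data, the odds ratio was 0.562 and the adjusted p 0.0322. With starts at most 150 bp away they were 0.65 and 0.602. With peaks within 500 bp counted as shared they were 0.592 and 0.162 (Fisher's exact test). No setting other than 1 kb passed the threshold. The GC box was in 72.0% of the 118 windows, 79.5% of shared Foxn4 windows, 65.8% of Foxn3 and Rfx3 windows and 46.2% of all. GC content was highest in the Foxn4-only windows (median 64.3%), with 61.7% in shared Foxn4, 60.0% in Foxn3 and Rfx3 and 56.3% in all windows, and the median CpG counts were 25, 23, 21 and 13. The part of base composition in the GACGC and GC box shares was not tested. The remaining sequences were a homeodomain site (TAATTA), an AP-1 site (TGACTCA) and a pair of E-boxes, 1 spelled CAGCTG and the other CATCTG. They gave adjusted p-values of 0.363 or more against both classes.

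**Figure D2:**
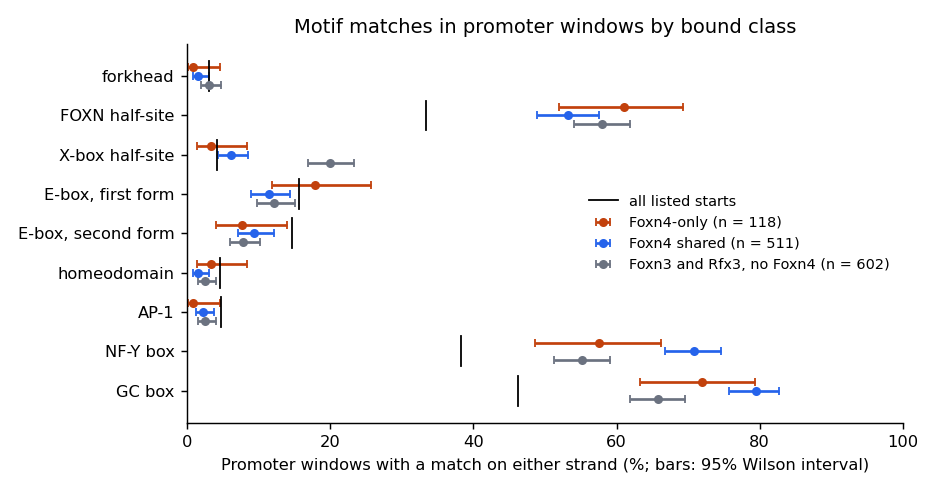
Share of 300 bp promoter windows with a match to each of 9 sequences (x axis, %). Points are Foxn4-only (orange, n = 118), shared Foxn4 (blue, n = 511) and Foxn3 with Rfx3 without Foxn4 (grey, n = 602), bars are 95% Wilson intervals, and black ticks are all 21263 listed windows. The X-box half-site stands at 3.39% in Foxn4-only, 6.07% in shared Foxn4 and 19.9% in Foxn3 and Rfx3 windows. Rfx3 peaks were used to define these classes, so the selection bears on this sequence.

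The 184 gene-end regions named 215 genes, which is 0.982% of the 21887 protein-coding genes, and 208 of the 215 had 1 region. The score in the deposited list is the authors' own value per peak, with a range of 2.67 to 37.3 and a median of 7.11 over the Foxn4 list. It serves here only to rank peaks of that list. Gene-end regions had a median score of 6.22 (3.56 to 26.7) and deeper regions also 6.22 (2.67 to 30.2), below the 7.11 and 8.89 of the shared Foxn4 regions at the same places. A score at or above the list median was found in 76 of 184 gene-end regions (41.3%) and 300 of 632 deeper ones (47.5%), with an odds ratio of 0.779 (0.559 to 1.09, Fisher's exact test, adjusted p = 0.307). For width the shares were 40.2% and 44.8% (odds ratio 0.83, 0.594 to 1.16, Fisher's exact test, adjusted p = 0.311). Both intervals hold odds ratios below and above 1, so the data do not show that the 2 kinds of region are alike in score or width.

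The top of the ranking held narrow peaks. The highest gene-end region was 84 bp wide, 726 bp downstream of the start of the zinc finger gene Zfp324 (chr7:12966523-12966606, score 26.7). Among the 8 highest deeper regions 7 were under 150 bp: those in Sf3b2 (score 30.2), Tnpo1 (29.3), Itga4 (24.9), Suclg1 (23.1), Fmn1 (21.3), Csmd2 (21.3) and Sf3a1 (19.6). Sf3b2 and Sf3a1 encode splicing factors, Tnpo1 a nuclear import receptor and Itga4 an integrin. The other one, in the kinase gene Prkg1, was 489 bp wide with a score of 19.6. Over all deeper regions 28 of 632 were under 150 bp, with a median score of 12.9 against 6.22 in the wider ones. In gene-end regions 1 of 184 was that narrow.

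Below Zfp324 the gene-end ranking ran without such peaks. Esyt1, a membrane contact protein, had 1 region (chr10:128525899-128526151, score 10.7) and so did Fchsd2, an endocytic adaptor (chr7:101108404-101108633, score 10.7). Regions with a score of 9.78 included the one between the starts of Mplkip and Sugct and those of Ifnar1 (an interferon receptor chain), Gm13283 and Npvf (a neuropeptide precursor). Ties were ordered by position, and the tie at 9.78 also reached regions at Btbd16 and at Abhd8 and Mrpl34.

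Deeper regions lay in long genes. They were found in 481 genes, 2.2% of the 21887, whose median length was 182762 bp against 17169 bp for all genes. Of the 632 regions, 440 (69.6%, 65.9 to 73.1%) were in genes over 100 kb, against 186 of 307 deeper shared Foxn4 regions (60.6%; odds ratio 1.49, 1.12 to 1.98, adjusted p = 0.00955) and 284 of 571 deeper Rfx3-only regions (49.7%; 2.32, 1.83 to 2.93, adjusted p = 5.9e-12; Fisher's exact test, 6 tests of position adjusted together). Per Mb of gene, without the 1 kb at each end that the rule keeps out of the deeper class, the rate was 0.262 in genes up to 10 kb, 0.478 at 10 to 30 kb, 0.518 at 30 to 100 kb, 0.635 at 100 to 300 kb and 0.79 above. Over whole gene lengths the lowest class had 0.154.

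Where strand was known, each gene was divided into 4 equal lengths from its start, and these held 131, 143, 129 and 125 of 528 deeper regions. The length nearest the start held 24.8% (21.3 to 28.7%), against 33.2% of deeper shared Foxn4 regions (odds ratio 0.664, 0.479 to 0.919, adjusted p = 0.0168) and 24% of deeper Rfx3-only regions (1.05, 0.779 to 1.41, adjusted p = 0.822, Fisher's exact test). Of 616 deeper regions, 24 (3.9%, 2.63 to 5.73%) lay within 1 kb of another listed start. This compared with 19.6% of shared Foxn4 regions (odds ratio 0.166, 0.101 to 0.273, adjusted p = 6.24e-13) and 13.6% of Rfx3-only regions (0.258, 0.161 to 0.416, adjusted p = 5.84e-09, Fisher's exact test). Exons and introns were not used here, and regions of 1 list are not replicates, so these tests describe the lists. The rule asks for no Foxn3 or Rfx3 peak, and the compared classes were defined by having one. The selection therefore bears on all of these tests of position.

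Most genes with a deeper region had 1 (397 of 481), 53 had 2 and 31 had 3 or more. Cwc22, which encodes a splicing factor, had 22 in 65.2 kb. Galntl6, a glycosyltransferase gene of 1140.0 kb, had 6, and Tenm3, a teneurin that guides synaptic partner choice, also had 6 in 1297.0 kb. Lrrc4c, a netrin-G ligand, had 5 in 1314.0 kb and Agap1, an Arf GTPase-activating protein, 5 in 440.0 kb. The short genes 1600014C10Rik, Cd244a and 2410141K09Rik had 5, 4 and 4. The 4 regions of Cd244a and 2410141K09Rik were also reached by Ccl21b, Epha5, Macrod2, Reln, Robo2 and Sox5, longer genes that came after them in regions per length. Per 100 kb this is 33.7 for Cwc22, 34.8 for 1600014C10Rik, 17.4 for 2410141K09Rik and 15 for Cd244a, against 0.381 to 1.14 for the 4 long genes.

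**Figure D3:**
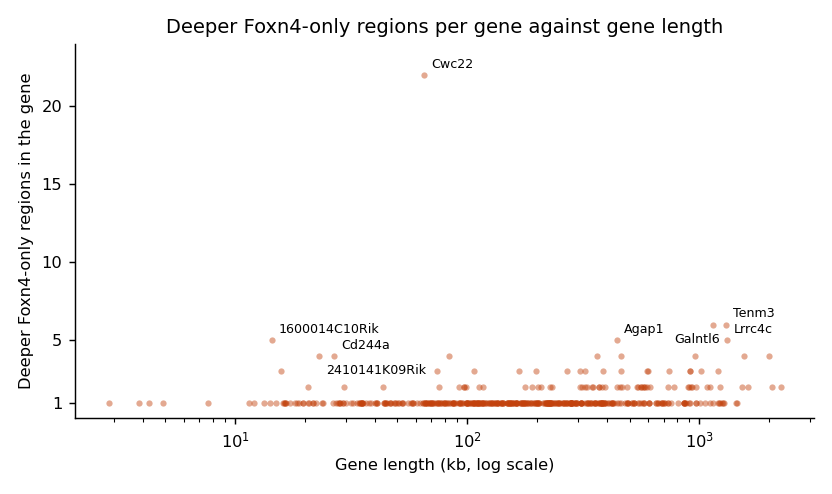
Number of deeper Foxn4-only regions per gene (y axis) against gene length (x axis, kb, log scale) for the 481 genes with at least 1. Each point is a gene, and 8 of those with the most are named; the 2 named at 4 regions tie with 6 others. Cwc22 stands at 22 regions in 65.2 kb, and the other genes with 5 or more include 4 that exceed 400 kb.

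Genes of retinal fate regulators held Foxn4-only regions at 3 gene ends and in 10 gene bodies among 97 genes, that is 3.09% and 10.3%, beside 0.982% and 2.2% of all genes. The 13 deeper regions amounted to 1.73 per Mb of gene, beside 0.604 per Mb over all protein-coding genes. The same genes held 9 deeper shared Foxn4 regions (1.2 per Mb, all genes 0.293) and 5 deeper Rfx3-only regions (0.665 per Mb, all genes 0.554). The list was drawn up with results of these data known, so the counts are a description and give no support for a direction.

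Rorb, the nuclear receptor that acts with Foxn4 in horizontal and amacrine fate, had both kinds of region. Its gene-end region had a score of 8.89, higher than 67.6% of the Foxn4 list, and its deeper region, 6350 bp into the gene (chr19:19104655-19105038), had 9.78. Pax6, a master regulator of eye development, had 2 deeper regions, chr2:105675222-105675730 (score 9.78) and chr2:105686778-105687112 (6.22). Its neighbour Elp4, whose introns are known to hold distant Pax6 enhancers, had 2 more, with scores of 6.22 and 7.11, and was named after its values were seen. Neither Rorb nor Pax6 held a Foxn3 or Rfx3 peak.

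Tbx2, a T-box factor of the dorsal retina, had a gene-end region 62 bp from the gene end (chr11:85832523-85832832, score 7.11). Insm1, a zinc finger factor of neuronal precursors, had 1 at 368 bp (chr2:146221497-146221761, score 6.22). In the other fate regulators the regions lay deeper. Foxp1, a forkhead factor, had 3 with scores of 5.33, 7.11 and 8.0. Thrb, the thyroid hormone receptor of cones, had 1 (chr14:17733732-17734128, score 8.0) and the neuronal repressor Zeb2 had 1 (chr2:45031635-45031957, score 8.89). Nfia, a factor of late progenitors and glia, had 1 (7.11) and so had the progenitor factors Meis1 (5.33) and Nr2e1 (5.33). Tcf7l2 (5.33) and Tcf4 (4.44) had 1 each. Ptf1a, the target for which Foxn4 is best known, was in the list and had no gene-end or deeper Foxn4-only region. Foxn4 regions shared with another factor or lying between genes are outside this count.

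The Notch pathway, through which Foxn4 is thought to restrain progenitors by way of Dll4, was also listed. Of 47 genes 1 had a gene-end region and 1 a deeper one (2.13% each), beside 0.982% and 2.2% of all genes. They were the coactivators Maml1 (chr11:50292390-50292671, score 4.44) and Maml3 (chr3:51969476-51969876, score 5.33). Dll4 had no gene-end or deeper Foxn4-only region, a count that again leaves out shared regions and those between genes. The 1 deeper Foxn4-only region came to 0.411 per Mb of the listed genes, beside 0.604 over all genes. The same 47 genes held 3 deeper shared Foxn4 regions (1.23 per Mb, all genes 0.293). Deeper Rfx3-only regions numbered 4 (1.65 per Mb, all genes 0.554). In the forkhead family 2 of 44 genes (4.55%, beside 2.2% of all genes) had deeper regions. They were Foxp1 with the 3 named above and Foxn3 itself with 1 (chr12:99299229-99299610, score 4.44). These 4 regions came to 1.79 per Mb, beside 0.604 over all genes, and shared Foxn4 regions to 2.23 per Mb, beside 0.293. The Foxn3 gene also held 5 Foxn3 and 6 Rfx3 peaks elsewhere.

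Axon guidance genes held many deeper regions. Of 85 genes, 16 (18.8%, beside 2.2% of all genes) had at least 1. The 26 regions came to 1.45 per Mb, beside 0.604 over all genes. The same genes held 5 deeper shared Foxn4 regions (0.279 per Mb, all genes 0.293) and 12 Rfx3-only regions (0.668 per Mb, all genes 0.554). The median gene of the list was 69.0 kb long, against 17.2 kb for all genes. Over whole lengths, all genes of 100 to 300 kb had 0.627 Foxn4-only regions per Mb and longer ones 0.787.

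Ephrin receptors and Robo receptors made up much of this list. Epha3 had 3 regions within a few kb of each other, chr16:63806405-63806649, chr16:63809041-63809353 and chr16:63809943-63810234, with scores of 8.89, 13.3 and 16.9. The last of these was above 96.6% of Foxn4 peaks. Epha5 had 4 regions, Epha6 1 and Ephb2 1, and Epha7 had the gene-end region shown above (score 7.11). Robo1 had 3, with scores of 8.0, 8.89 and 8.89, and Robo2, like Robo1 a receptor for Slit proteins, had 4 with 6.22, 6.22, 8.89 and 8.89. The semaphorin receptor Plxna2 had 1 broad region of 723 bp (chr1:194773950-194774672, score 13.3). The contactins Cntn1 and Cntn5 had 1 each at a score of 10.7.

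Synaptic and cell adhesion genes were long (median 291.0 kb), and 20 of 107 (18.7%, beside 2.2% of all genes) had a deeper region. Per length their 34 regions came to 0.601 per Mb, beside 0.604 over all genes, 0.627 in genes of 100 to 300 kb and 0.787 in longer ones. The highest scores were in Csmd2 (21.3, the narrow region above), Tenm2 (15.1), the neuroligin Nlgn1 (12.4) and Flrt3 (12.4), a cell adhesion and guidance gene that lies inside Macrod2. Lrrtm2 had the single gene-end region of the list (score 4.44).

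Receptors for neurotransmitters had deeper regions in 8 of 59 genes (13.6%) and none at a gene end, beside 2.2% and 0.982% of all genes. The 9 regions came to 0.773 per Mb, beside 0.604 over all genes, 0.627 in genes of 100 to 300 kb and 0.787 in longer ones. The median gene of the list was 94.0 kb long. The part of gene length in the list rates was not tested. The highest were in the metabotropic glutamate receptor Grm8 (16, a 103 bp peak), the GABA-A subunit Gabra3 (9.78), the kainate receptor Grik2 (7.11) and Grm7 (7.11 in both of its regions). Cell cycle genes had gene-end regions only, in 2 of 61 (3.28%, beside 0.982% of all genes): Incenp, a chromosomal passenger protein (score 6.22), and the helicase subunit Mcm5 (6.22). Both scores were below the list median of 7.11.

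Chromatin regulators had gene-end regions in 3 of 96 (3.12%, beside 0.982% of all genes) and deeper ones in 7 (7.29%, beside 2.2%), the latter at 0.83 per Mb beside 0.604. The same genes held 11 deeper shared Foxn4 regions (1.14 per Mb, all genes 0.293) and 6 deeper Rfx3-only regions (0.622, all genes 0.554). With only Foxn4 scores at or above the median, 1 gene with a gene-end and 3 with a deeper Foxn4-only region were left. The gene-end regions were those of Ctcf, the insulator protein (score 3.56), the acetyltransferase Ep300 (5.33) and Setd5 (8.0). Chd9, a chromatin remodeller, had the highest deeper one (9.78), followed by the histone deacetylase Hdac9 (7.11) and the demethylase Kdm2b (7.11). Primary cilium genes had 2 gene-end and 3 deeper genes of 109 (1.83% and 2.75%, beside 0.982% and 2.2%). Ift20, a subunit of the intraflagellar transport particle, had a gene-end region (chr11:78536143-78536522, score 7.11) and so had Mkks, a chaperonin-like protein of ciliary assembly (chr2:136891999-136892266, score 7.11). The latter region lay 726 bp from the nearer boundary of the Mkks gene and 36 bp upstream of the start of the neighbouring Slx4ip. With a limit of 500 bp it was no longer counted for Mkks. The Ift20 region also lay within 1 kb of an end of the neighbouring Tnfaip1. Bbs7 had 1 deeper region (7.11), and Sufu, an inhibitor of Hedgehog signalling, had 2 (3.56 each).

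**Figure D4:**
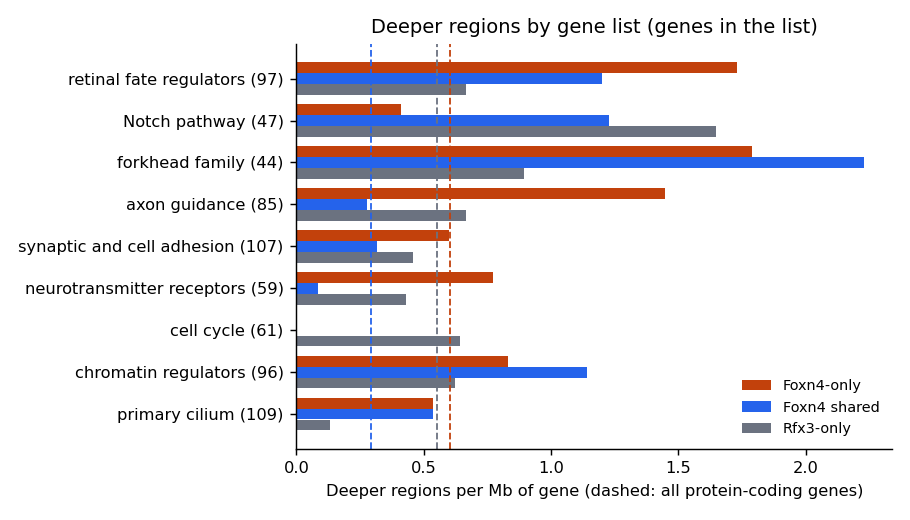
Deeper regions per Mb of gene (x axis) in 9 gene lists, with the number of genes in parentheses. Bars are Foxn4-only (orange), shared Foxn4 (blue) and Rfx3-only (grey) regions, and dashed lines of the same colours are all protein-coding genes. The orange bars stand at 1.79 for the forkhead family (4 regions), 1.73 for retinal fate regulators (13) and 1.45 for axon guidance (26), beside a line at 0.604. The lines are not matched for gene length.

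A Foxn3 or Rfx3 peak lay elsewhere inside 26 of the 215 genes with a gene-end region (12.1%, 8.39 to 17.1%). The interval holds the 16.4% of all genes, and the rule itself had removed such peaks at the region. Genes with deeper regions had one in 171 of 481 (35.6%, 31.4 to 39.9%). Among those over 100 kb the share was 41.1% (36.0 to 46.5%), beside 28.5% of all genes over 100 kb. Lengths above 100 kb were not matched. Of the genes with deeper regions 174 were 100 to 300 kb long and 159 longer, against 1872 and 557 of all genes. The part of gene length in this difference was not tested. A gene with a Foxn4-only region could thus carry the other factors elsewhere. Nlgn1, for example, also held 3 Foxn3 and 3 Rfx3 peaks. The nearest Foxn3 or Rfx3 peak was a median of 118 kb from gene-end regions and 209.0 kb from deeper ones, and 8 and 7 regions had one within 500 bp.

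Regions at the limits of the rule were as follows. Just inside the limit of 1 kb lay a region 965 bp from an end of Npm1 (score 6.22). Just outside lay regions 1008 bp from Maf (10.7) and 1029 bp from Crxos (6.22), which counted as between genes. The narrowest gaps to another factor's peak were 25 bp in Sybu (7.11, a Rfx3 peak) and 33 bp at Dtl and Ints7 (7.11, a Foxn3 peak). The smallest overlaps that made a Foxn4 peak shared were 127 bp in Gpc5 (14.2) and 141 bp at Nrd1 (8.89). Which Foxn4 peaks count as alone depends on weak peaks of the other lists: with only Foxn3 and Rfx3 peaks at or above their list medians, 572 gene-end and 835 deeper regions would be Foxn4-only.

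Some Foxn4-only regions formed dense runs, a feature picked out after the values were seen. With a run taken as at least 4 Foxn4-only regions each at most 20 kb from the next, 13 runs held 122 of the 1654 regions, and 52 of the 816 in or near genes (12 gene-end, 40 deeper). Runs of the other classes were fewer: shared Foxn4 regions had 2, with at most 6 regions, Rfx3-only regions 2, Foxn3 and Rfx3 regions 1 and Foxn3-only regions 0. Regions in runs had a median score of 5.78 and a median width of 402.0 bp, against 6.22 and 330.0 bp outside.

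The longest run lay over Cwc22. It held 43 regions over 153.0 kb (chr2:77870012-78023289), 24 of them in or at the gene and 19 beyond it, and no Foxn3 or Rfx3 peak. The 22 deeper regions had scores of 4.44 to 9.78 (median 6.22) and covered 12267 bp. These scores lay around the 6.22 median of all deeper regions. The copy number of the segment around Cwc22 is known to differ between mouse stocks. Copy number in these retinas was not tested. The Foxn3 list skips 2 peak numbers between the Foxn3 peaks that flank the run, and what those numbers stood for is not given in the sources used here.

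**Figure D5:**
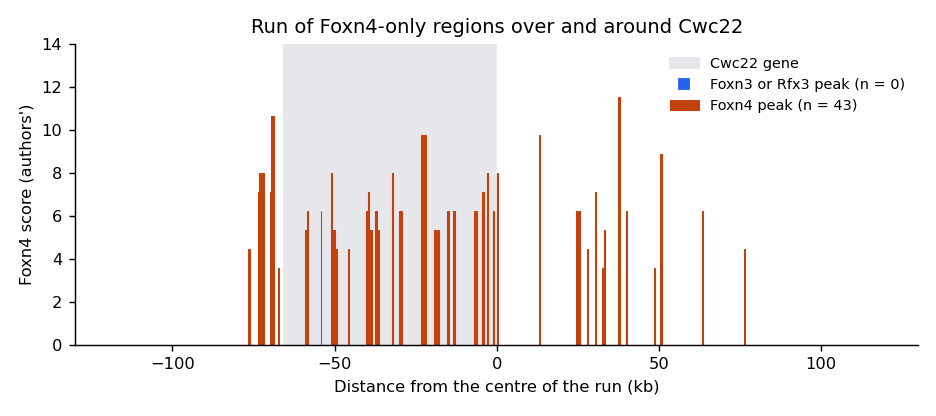
Scores of the 43 Foxn4 peaks (y axis, the authors' unit) in the run over Cwc22, placed by distance from the centre of the run (x axis, kb), with each bar as wide as its peak (a thin outline is added). The grey band is the Cwc22 gene. No Foxn3 or Rfx3 peak lies in the 50 kb on either side or within the run.

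Other runs lay over Cd244a and Itln1 (13 regions in 55.8 kb), 1600014C10Rik (11 in 24.3 kb), 2410141K09Rik (5 in 17.1 kb), the chemokine gene Ccl21b (4 in 30.6 kb) and the interferon zeta cluster with Ifnz (4 in 21.9 kb). Several of these genes belong to families with near-identical copies, where short reads can be placed on the wrong copy. How reads with several matches were treated is not given in the sources used here. The part of read placement in these runs was not tested. Without the runs the rate of deeper regions, again without 1 kb at each gene end, was 0.347 and 0.42 per Mb in genes of 10 to 30 kb and 30 to 100 kb, and unchanged in the other length classes.

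Non-coding genes overlapped a small number of the regions. Long non-coding RNA genes overlapped 20 gene-end regions (10.9%) and 37 deeper ones (5.85%). The hairpins of 2 microRNAs were touched, Mir7238 by the gene-end region of Ankrd10 (chr8:11635703-11636048, score 6.22) and Mir1894 by a deeper region of Ppp1r10 (chr17:35917720-35918240, score 9.78).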

How the data were processed

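The deposited data were 3 peak lists (Foxn3, Foxn4, Rfx3), 1 per antibody, with a score per peak. Per the submitters' processing notes, cutadapt, Bowtie2, UMI-tools, bedtools, SEACR and mm10 were used; their roles, versions and thresholds, which libraries entered each list and how IgG was used are not given in the sources used here. The deposited score has no stated scale and was used only within a list.

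Peaks overlapping by at least 1 bp were merged and placed by midpoint on 21887 RefSeq protein-coding genes (GRCm38.p6, chromosomes 1 to 19, X and Y). Strand and starts came from RefSeq promoter windows (17492 genes matched; chromosome 18 has none). No genome was used, so the planned motif windows around region centres were replaced by these promoter windows. Shares carry Wilson intervals; classes were compared with Fisher's exact test (SciPy 1.17.1) and Benjamini-Hochberg adjustment, tested on simulated data. Regions are not replicates.

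Named with values were the 8 highest regions of each kind, the 8 genes with most deeper regions, all hits of the retinal, Notch and forkhead lists and the 4 highest of each other list; some of these are not reported here. Elp4, Epha5, Epha6, Epha7, Ephb2, Robo1, Robo2, Lrrtm2, Sufu, Ctcf, Ep300 and the microRNAs were added after their values were seen. The regions, the 9 gene lists (6 cilium symbols unmatched) and the dense runs were chosen with earlier results of these data known.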

Additional observations from a re-analysis of the deposited data

How the results depend on the processing

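The number of gene-end regions depended most on the other factors' lists: counting only Foxn3 and Rfx3 peaks with scores at or above their medians gave 572 in place of 184, while deeper regions went from 632 to 835. Keeping only Foxn4 peaks with scores at or above the median left 76 gene-end and 300 deeper regions. A limit of 5 kb from a gene end gave 294 gene-end regions. The other settings tried (limits of 500 bp and 2 kb, peaks within 100 or 500 bp counted as shared, overlap of 50% of the shorter peak, peaks of at least 150 bp, unnamed genes and receptor families removed, dense runs removed) kept the gene-end count between 153 and 211 and the deeper count between 592 and 650. The comparisons of score and width stayed past no threshold in any setting, with odds ratios of 0.735 to 0.882 and 0.808 to 0.904. Of 90 motif values under other settings, 1 (CCAAT with starts up to 1 kb away) passed the threshold where it had not before. Of the gene list counts, 89 stayed within 1.5 times of the reported value and 19 did not. With Foxn4 scores at or above the median, genes with deeper regions fell from 16 to 10 for axon guidance, 10 to 6 for retinal fate regulators, 8 to 4 for neurotransmitter receptors, 7 to 3 for chromatin regulators, 2 to 1 for forkhead genes and 1 to 0 for Notch, and genes with gene-end regions fell from 3 to 1 for chromatin regulators, 2 to 0 for cell cycle and 1 to 0 for Notch and for adhesion. At 5 kb the retinal gene-end count rose from 3 to 9, and at 2 kb to 5; the adhesion count rose from 1 to 4 and 2. Notch had 2 gene-end genes at 5 kb, and 0 gene-end and 2 deeper genes at 500 bp. The cilium gene-end count fell from 2 to 1 at 500 bp and with peaks within 500 bp counted as shared. The settings without dense runs and with starts at 150 bp or 1 kb were chosen after seeing the data. Motif windows of other lengths around region centres were not run, because no genome was used. No paired analysis was possible because each antibody has 1 peak list, so the replicate numbers of the libraries pair nothing, and no library could be left out.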
